A study of Homo sapiens with 32 samples.

Results

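The 10 transcription factors that build or hold back the plasma cell state followed here were XBP1, IRF4, PRDM1, MAF, POU2AF1, BCL6, PAX5, SPIB, BACH2 and MEF2C. They were chosen by symbol, as the rows of the deposited expression table that carry these names, and 9 of the 10 were matched among 24249 genes. PAX5 was not analysed here. The cells were MM.1S, a human multiple myeloma line, that is, a tumour of plasma cells grown in culture. The line carries a translocation that places MAF under the control of the immunoglobulin heavy chain locus.

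All cells had a 1 h pulse, either with the solvent DMSO or with carfilzomib (Cfz, an inhibitor of the proteasome; dose not given in the sources used here), and then 12 h of culture in DMSO or in all-trans retinoic acid (ATRA) at 10 µM. ATRA is the ligand of the nuclear retinoic acid receptors. The 32 sequenced samples are 4 lanes of each of 8 libraries: 3 libraries with DMSO at both steps (DMSO), 3 with a DMSO pulse followed by ATRA (ATRA), 1 with a Cfz pulse followed by DMSO (Cfz) and 1 with a Cfz pulse followed by ATRA (ATRA+Cfz). The labels do not say whether the 3 libraries of a group came from separate cultures, so each p-value measures only how libraries spread, and that spread may be technical. Every comparison that involves Cfz rests on 1 library, has no replicate check, and takes its error from the spread of the DMSO and ATRA libraries.

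In B cells, PAX5, BCL6, BACH2 and SPIB maintain B cell and germinal centre genes and keep PRDM1 low. PRDM1 encodes BLIMP1, a repressor that shuts this B cell program down, and IRF4 drives both that switch and the survival of the resulting plasma cell. XBP1, made active when the endoplasmic reticulum (ER) sensor IRE1 splices its mRNA, then expands the ER and the secretory machinery that antibody production needs. The gene-level values used here do not separate spliced from unspliced XBP1 mRNA.

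The 4 factors that rose with ATRA were XBP1, PRDM1, MAF and BACH2. The first 3 are the plasma cell and myeloma factors among those that moved up together. They are shown by the 250 bases before their first listed RefSeq start (GRCh38.p14). Capitals mark CCAAT, the box bound by NF-Y, and CCACG, a core of ER stress elements, on either strand. XBP1 lies at chr22:28800570-28800819 (minus strand), PRDM1 at chr6:106086086-106086335 (plus strand) and MAF at chr16:79600738-79600987 (minus strand).
XBP1: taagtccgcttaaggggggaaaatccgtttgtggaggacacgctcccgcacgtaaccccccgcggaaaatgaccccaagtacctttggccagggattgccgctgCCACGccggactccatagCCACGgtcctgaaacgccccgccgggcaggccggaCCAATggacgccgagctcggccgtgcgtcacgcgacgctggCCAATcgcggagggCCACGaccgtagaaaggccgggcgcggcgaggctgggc
PRDM1: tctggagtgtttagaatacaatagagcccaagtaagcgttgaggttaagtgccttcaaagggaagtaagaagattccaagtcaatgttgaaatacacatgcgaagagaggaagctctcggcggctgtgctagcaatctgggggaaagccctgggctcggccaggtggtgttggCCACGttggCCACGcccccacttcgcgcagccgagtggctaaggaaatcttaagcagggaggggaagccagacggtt
MAF: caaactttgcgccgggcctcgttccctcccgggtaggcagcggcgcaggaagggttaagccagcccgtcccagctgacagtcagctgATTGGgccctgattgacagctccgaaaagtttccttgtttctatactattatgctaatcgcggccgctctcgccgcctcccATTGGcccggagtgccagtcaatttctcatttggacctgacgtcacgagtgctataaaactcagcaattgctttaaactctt

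The window before XBP1 held CCAAT at -93 to -89 and at -52 to -48, and CCACG at -146 to -142, -128 to -124 and -38 to -34, counted back from the start. Its CCAAT and CCACG nearest to the start were 9 bases apart, the spacing of the classical ER stress element. That spaced pair, searched for after the sequence had been seen, was found in 27 of 35116 RefSeq promoter windows of 300 bases, or 0.0769%. By itself CCAAT was in 34.6% of those windows and CCACG in 38.1%. PRDM1 had CCACG at -77 to -73 and -68 to -64 and no CCAAT. MAF had CCAAT on the reverse strand at -163 to -159 and -82 to -78. It also held TGCTGA, the core of the element that MAF proteins bind, on the reverse strand at -22 to -17, letters found in 17.3% of all windows. AGGTCA, a half-site of the retinoic acid receptors found in 13.8% of windows, was in none of these 3 windows. Among the first listed windows of the members, it was in that of SPIB. XBP1 and PRDM1 have 2 windows each, and the one not shown is not described here. These matches describe letters in a short window and show no binding.

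The 8 libraries held 14136937 to 17155331 reads, so that 3 reads correspond to 0.175 to 0.212 FPM, the unit of the deposited values (fragments scaled to a total of 1000000 per lane), a floor that covers counting error only. The third DMSO library stood apart: its chi-square per degree of freedom was 9.366 and 9.898 against the other DMSO libraries, which differed from each other by 1.739. Mitochondrially encoded genes took 5.854% of its reads, against 4.117% and 4.095% in the other DMSO libraries, 3.67% to 3.89% with ATRA, 5.433% with Cfz and 5.719% with ATRA+Cfz. This share differed both between treatments and within the DMSO libraries, and its part in the differences below was not tested. Of the plasma cell markers, 9 of 9 were measured, 3 of them members here, with a summed level of 8051 to 11087 FPM in every library. MS4A1 and CD22, markers listed for B cells, were not analysed here. Markers of T and NK cells summed to at most 1.61 FPM, myeloid ones to at most 1.32, stromal ones to at most 2.42 and epithelial ones to at most 3.47.

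Among the members, 6 were abundant and 3 were far lower. Per kb of the longest annotated transcript (GENCODE release 29), the DMSO mean was 412 FPM for XBP1, 214 for IRF4, 140 for MAF, 108 for MEF2C, 94.6 for POU2AF1 and 87.2 for PRDM1, then 3.01 for BACH2, 0.393 for BCL6 and 0.305 for SPIB. Neighbours in this order did not overlap over the DMSO libraries, except POU2AF1 (88.6 to 98.5) with PRDM1 (82.0 to 89.8) and BCL6 (0.307 to 0.52) with SPIB (0.276 to 0.319). With ATRA, MAF (268 to 270 FPM per kb) stood above IRF4 (156 to 159), and PRDM1 (129 to 132) above POU2AF1 (89.3 to 92.2) and MEF2C (81.1 to 82.8).

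With ATRA alone, XBP1, PRDM1, MAF and BACH2 rose and IRF4, BCL6 and MEF2C fell, while POU2AF1 and SPIB did not pass the test. A gene was called when its adjusted p, from limma across 15827 genes with the Benjamini-Hochberg method, was under 0.05. All 9 measured members passed the filter on low values. Thus 7 of 9 were called, where 48.7% of all genes were, 4 of them higher against a background of 21.3% and 3 lower against 27.4%. The median log2 difference of the members was 0.35, beside -0.03 over all genes tested. That median is the value of SPIB, which was not called, and it lies between members that rose and members that fell. ATRA moved genes throughout the transcriptome, so a call is common among all genes, and the count is read against that share. The share covers all genes from a mean of 0.5 FPM up, and most members were far above this level. Neither for the members nor for the gene lists below was it matched on level. In bulk RNA, fewer cells that express a factor and less of its RNA per cell cannot be told apart.

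**Figure D1:**
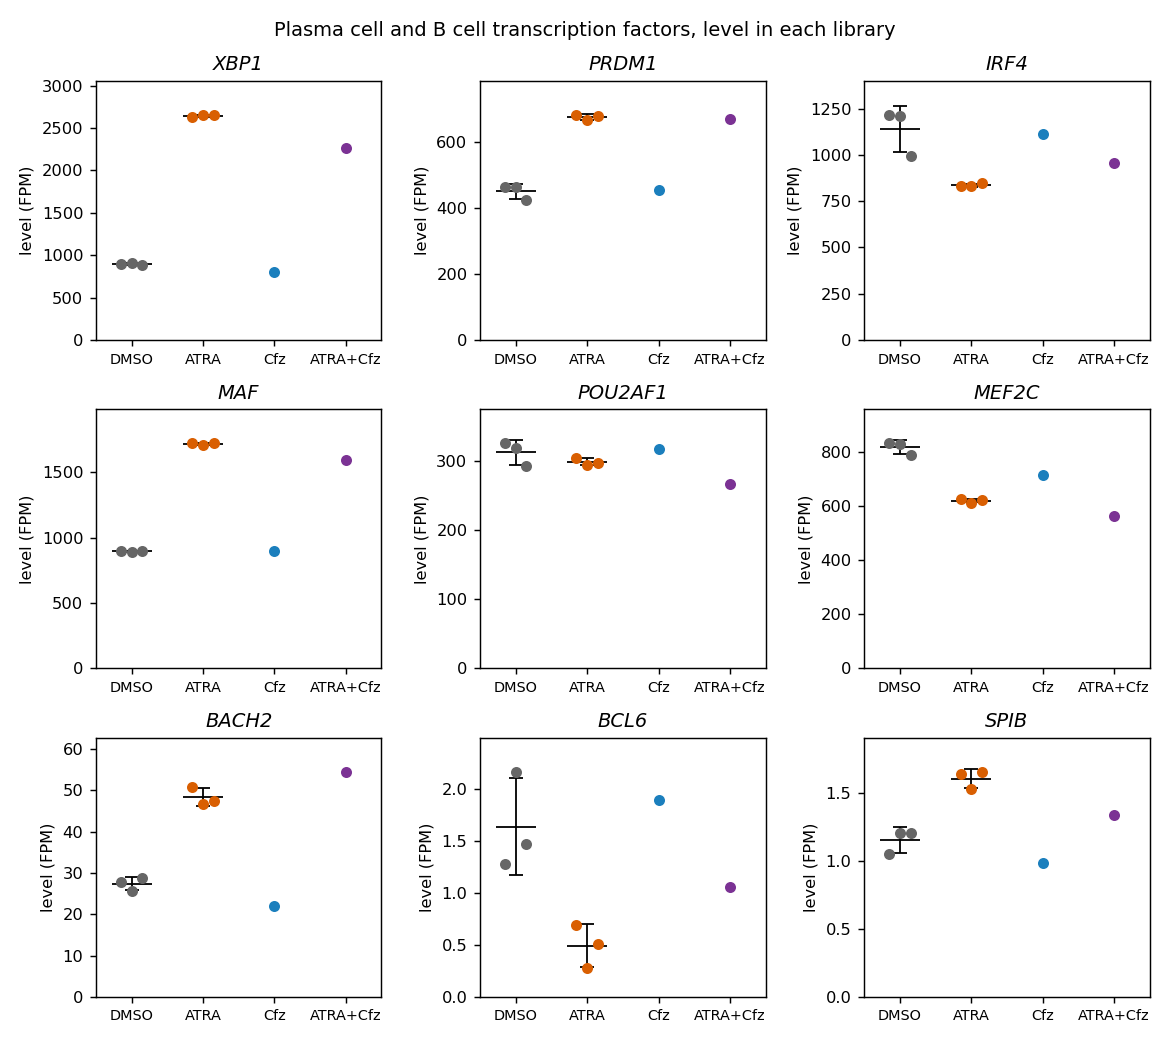
Level of each measured factor in each library, in FPM on linear axes that start at 0, by treatment. Points are libraries, and the line and bar give the mean and SD of the 3 DMSO or 3 ATRA libraries. XBP1, PRDM1, MAF, BACH2 and SPIB are higher in every library that had ATRA than in any that did not. IRF4, MEF2C and BCL6 are lower in every such library, and POU2AF1 overlaps. BCL6 and SPIB rest on few reads.

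XBP1 (ENSG00000100219, chromosome 22, 28794555 to 28800597, minus strand, GRCh38), whose promoter is shown above, changed most among the abundant factors. It stood at 890, 906 and 888 FPM in the DMSO libraries and at 2635, 2648 and 2656 FPM in the ATRA libraries, with 800 FPM in Cfz and 2259.9 FPM in ATRA+Cfz. The libraries with ATRA were far above those without it, and the Cfz library was below all 3 DMSO libraries. ATRA raised the mean 2.96-fold, a log2 difference of 1.56 (SE 0.03, limma adjusted p = 3.9e-11). After the Cfz pulse, ATRA raised it 2.83-fold over Cfz alone (log2 1.50, SE 0.06, limma adjusted p = 2.2e-08), and the test of the difference between both ATRA effects gave -0.07 (SE 0.07, limma adjusted p = 0.65). XBP1 was lower in ATRA+Cfz than in ATRA, by a log2 difference of -0.23 (SE 0.05, limma adjusted p = 3.3e-03).

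PRDM1 (ENSG00000057657, chromosome 6, 106086320 to 106109939, plus strand) was at 463, 464 and 423 FPM with DMSO, at 682, 667 and 677 FPM with ATRA, at 455 FPM with Cfz and at 669 FPM with ATRA+Cfz. The 4 libraries with ATRA lay close together and above the 4 without it. ATRA raised this repressor 1.50-fold (log2 0.58, SE 0.04, limma adjusted p = 3.2e-07). The rise after Cfz was of like size, at 0.55 (SE 0.07, limma adjusted p = 1.2e-04), and the difference between the ATRA effects was -0.03 with a 95% interval of -0.21 to 0.15. ATG5 overlaps the span of PRDM1 on the other strand but shares no exon with it.

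IRF4 (ENSG00000137265, chromosome 6, 391739 to 411447, plus strand), on which myeloma cells depend, moved the other way. Its levels were 1217.5, 1208.8 and 995 FPM with DMSO, 830, 833 and 846 FPM with ATRA, 1113.7 FPM with Cfz and 958 FPM with ATRA+Cfz. The ATRA libraries were below every DMSO library, and ATRA+Cfz stood between the ATRA libraries and the lowest DMSO library. Under ATRA the mean fell to 0.733 of the DMSO mean, a log2 difference of -0.44 (SE 0.07, limma adjusted p = 1.5e-04). The third DMSO library, with a level of 988 to 1011.8 FPM in each of its lanes, set most of the spread. Without it the ATRA difference was -0.54 (limma adjusted p = 5.4e-13).

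After Cfz, the calls of IRF4 varied with the library set and the tool. Against Cfz alone, ATRA+Cfz was lower by -0.22 (95% interval -0.46 to 0.03) and not called. Without the third DMSO library that difference was again -0.22, and it was called. ATRA+Cfz was 0.20 above ATRA on the log2 scale (SE 0.09, limma adjusted p = 0.13), and 0.20 (limma adjusted p = 4.6e-06) without the third DMSO library. With all libraries DESeq2 gave 0.23 (adjusted p = 0.035). The difference between the ATRA effects was 0.22 (SE 0.13, limma adjusted p = 0.40), and 0.32 (limma adjusted p = 2.3e-05) without it. Against DMSO, ATRA+Cfz was lower by -0.25 (SE 0.09, limma adjusted p = 0.043), a call that ended with median-ratio scaling (adjusted p = 0.083), edgeR (0.11) and DESeq2 (0.073), and when the first or second DMSO library or any ATRA library was left out.

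MAF (ENSG00000178573, chromosome 16, 79585843 to 79600714, minus strand), a basic leucine zipper factor and in this line the product of the translocated locus, was at 899, 887 and 896 FPM with DMSO. It reached 1721, 1708 and 1721 FPM with ATRA and 1595.5 FPM with ATRA+Cfz, and was at 896 FPM with Cfz. Cfz alone left it inside the range of the DMSO libraries, and ATRA+Cfz was below all 3 ATRA libraries. ATRA raised MAF 1.92-fold (log2 0.94, SE 0.03, limma adjusted p = 1.4e-09). After Cfz the rise was 0.83 (SE 0.06, limma adjusted p = 1.0e-06), and the difference of -0.11 between the ATRA effects (SE 0.06) had a limma adjusted p of 0.40, or 0.029 without the third DMSO library.

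POU2AF1 (ENSG00000110777, chromosome 11, 111352252 to 111455630, minus strand) encodes OCA-B, a coactivator of octamer-binding factors at immunoglobulin promoters. It was at 325, 318 and 292 FPM with DMSO, 304, 294 and 297 FPM with ATRA, 316 FPM with Cfz and 266 FPM with ATRA+Cfz. The DMSO and ATRA libraries overlapped, and ATRA+Cfz was the lowest of the 8. AP002008.2, not analysed here, overlaps exons of POU2AF1 on the opposite strand, and its part in these reads was not tested. The ATRA difference was -0.06 (95% interval -0.15 to 0.03, limma adjusted p = 0.25), but -0.11 (limma adjusted p = 1.5e-03) without the third DMSO library. Against Cfz, ATRA+Cfz was lower by -0.25 (SE 0.07, limma adjusted p = 0.022), and against DMSO by -0.23 (SE 0.06, limma adjusted p = 7.3e-03), the latter not called by DESeq2 (adjusted p = 0.061).

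MEF2C (ENSG00000081189, chromosome 5, 88717117 to 88904257, minus strand), a MADS-box factor of B cell activation that some myeloma and leukaemia cells keep, fell with ATRA. Its levels were 833, 832 and 788 FPM with DMSO, 626, 613 and 624 FPM with ATRA, 716 FPM with Cfz and 562 FPM with ATRA+Cfz. ATRA lowered it to 0.759 of the DMSO mean (log2 -0.40, SE 0.03, limma adjusted p = 2.2e-06), and after Cfz the ATRA difference was -0.35 (SE 0.06, limma adjusted p = 1.0e-03). Each library with ATRA was below each without it, and Cfz lay between them. MEF2C-AS1 (3.0 to 5.56 FPM) and MEF2C-AS2 (0.243 to 0.64 FPM) overlap its exons on the opposite strand, and no strand setting is given in the sources used here, so reads of these genes cannot be told apart where they overlap.

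BACH2 (ENSG00000112182, chromosome 6, 89926529 to 90296908, minus strand), a repressor that holds back PRDM1 in B cells, was low but well above the floor. It was at 27.9, 25.6 and 28.8 FPM with DMSO, at 50.9, 46.8 and 47.3 FPM with ATRA, at 21.9 FPM with Cfz and at 54.5 FPM with ATRA+Cfz. The Cfz library was the lowest of the 8 and the ATRA+Cfz library the highest. ATRA raised BACH2 1.76-fold (log2 0.81, SE 0.06, limma adjusted p = 6.3e-07), and after Cfz it was 2.49-fold higher than with Cfz alone (log2 1.30, SE 0.10, limma adjusted p = 4.0e-06). The difference between the ATRA effects, 0.49 (SE 0.12), had a limma adjusted p of 0.059, and of 9.5e-03 without the third DMSO library. BACH2 was thus higher in the same libraries as PRDM1, the gene it represses in B cells. AL121787.1, not analysed here, overlaps exons of BACH2 on the opposite strand, and its part in the reads of BACH2 was not tested.

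BCL6 and SPIB were close to the limit of detection. BCL6 (ENSG00000113916, chromosome 3, 187721377 to 187745727, minus strand), the master repressor of the germinal centre, was at 1.28, 2.17 and 1.47 FPM with DMSO, or 22, 36 and 22 reads. With ATRA it was at 0.691, 0.279 and 0.508 FPM, or 11, 4 and 8 reads, all below the DMSO libraries. Cfz gave 1.90 FPM (29 reads) and ATRA+Cfz 1.06 FPM (15 reads), between both groups. The ATRA difference was -1.11 on the log2(FPM + 0.5) scale (SE 0.22, limma adjusted p = 1.4e-03), which understates the change of low genes, and -1.67 by edgeR (adjusted p = 2.0e-03) and -1.69 by DESeq2 (adjusted p = 7.2e-03). After Cfz the ATRA difference was -0.62 with a 95% interval of -1.47 to 0.22. AC072022.1 and AC072022.2, not analysed here, overlap exons of BCL6 on the opposite strand, and their part in its few reads was not tested.

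SPIB (ENSG00000269404, chromosome 19, 50418938 to 50431313, plus strand), an ETS factor of B cells that plasma cells switch off, was at 1.05, 1.21 and 1.21 FPM with DMSO and at 1.64, 1.53 and 1.66 FPM with ATRA. Cfz gave 0.985 FPM and ATRA+Cfz 1.34 FPM, all values resting on 15 to 26 reads. AC020909.1, not analysed here, overlaps exons of SPIB on the same strand, and its part in these reads was not tested. The ATRA libraries did not overlap the DMSO libraries, but the difference of 0.35 (95% interval -0.01 to 0.71) had a limma adjusted p of 0.097.

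**Figure D2:**
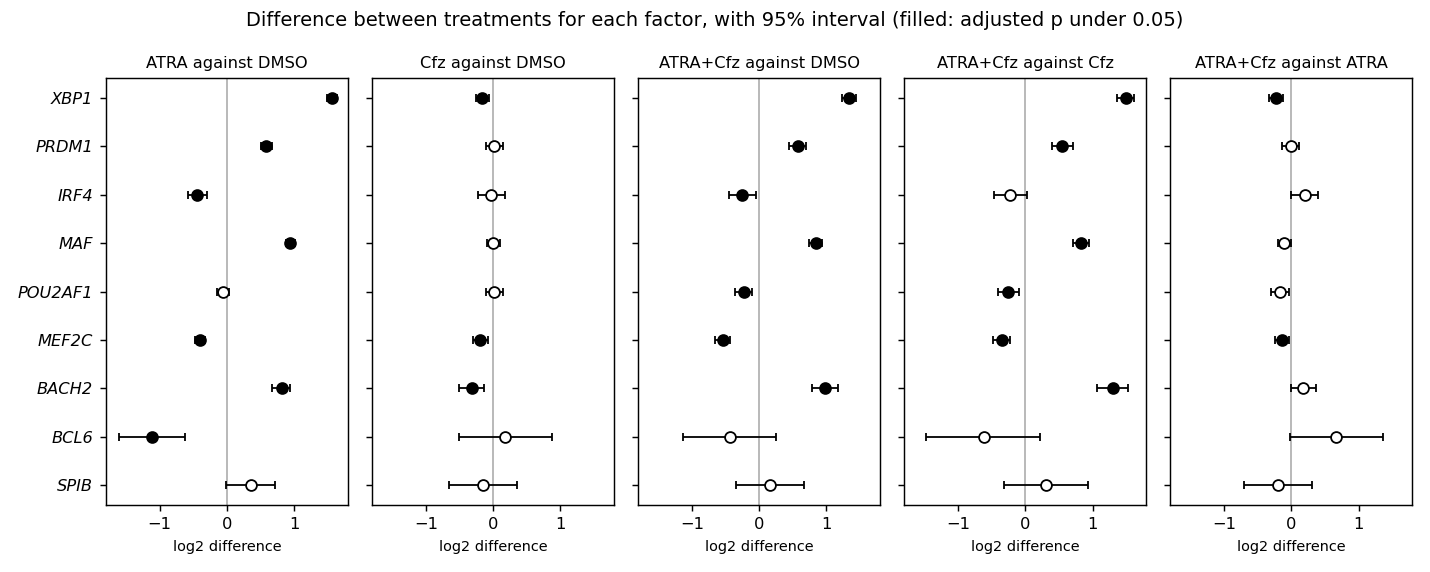
Log2 difference of each factor in 5 comparisons, on the log2(FPM + 0.5) scale, with its 95% interval from limma; filled points have an adjusted p under 0.05. XBP1 (1.56) is the highest for ATRA against DMSO and BCL6 (-1.11) the lowest, with wide intervals for BCL6 and SPIB throughout.

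With Cfz alone, 12 h after the pulse, XBP1, BACH2 and MEF2C were slightly lower. By limma 3 of 9 members were called, all lower: XBP1 (-0.16, SE 0.05, adjusted p = 0.026), BACH2 (-0.32, SE 0.09, adjusted p = 0.018) and MEF2C (-0.19, SE 0.05, adjusted p = 0.014). Over all genes 24.9% were called, 7.94% higher and 17.0% lower, and the members' median of -0.03 stood beside -0.08. These calls depended on the scaling: median-ratio scaling left 0 of 9, DESeq2 0 and edgeR 1 (MEF2C), and the call of XBP1 also ended when the first or second DMSO library or any ATRA library was left out. Of all calls 31.8% were higher, but 47.9% with median-ratio scaling, 42.2% by edgeR and 53.1% by DESeq2. IRF4 was at -0.03 (95% interval -0.23 to 0.17, limma adjusted p = 0.86), or -0.12 (limma adjusted p = 9.3e-04) without the third DMSO library. For PRDM1 the 95% interval was -0.11 to 0.14, for MAF -0.09 to 0.10 and for POU2AF1 -0.11 to 0.15.

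When ATRA followed the Cfz pulse, XBP1, PRDM1, MAF and BACH2 were again the 4 members higher than in the Cfz library, and POU2AF1 and MEF2C were lower. That made 6 of 9 called against Cfz, where 30.4% of all genes were, 12.8% higher and 17.6% lower. Against DMSO, 7 of 9 were called in ATRA+Cfz, with a background of 50.6%, of which 20.0% higher and 30.5% lower. The log2 differences from DMSO were 1.34 for XBP1 (SE 0.05), 0.98 for BACH2 (SE 0.09), 0.84 for MAF (SE 0.05) and 0.57 for PRDM1 (SE 0.06), against -0.54 for MEF2C (SE 0.05). This comparison shares its DMSO libraries with that of ATRA alone. In the comparison with Cfz, IRF4 was called lower as well when the third DMSO library was left out.

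Between ATRA+Cfz and ATRA, XBP1 (-0.23) and MEF2C (-0.14, SE 0.05, limma adjusted p = 0.043) were called lower. They were 2 of 9 members, in a background of 30.9% called, 10.6% higher and 20.2% lower. The call of MEF2C ended with median-ratio scaling, edgeR, DESeq2 and no filter, and when any DMSO or ATRA library but the third DMSO one was left out. Of all calls 34.4% were higher, and 45.3% by edgeR.

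Whether the ATRA effect differed with the Cfz pulse was tested by the limma interaction term: 0 of 9 members passed, with 2 (BACH2 and POU2AF1) at an unadjusted p under 0.05, and 0 of 9 passed by edgeR or DESeq2. Over all genes 2.30% were called, 0.992% higher and 1.31% lower. The share of those calls that were higher, 43.1%, was 22.3% with median-ratio scaling and 24.0% by DESeq2. Leaving out the third DMSO library raised the members called to 3, namely IRF4, MAF and BACH2.

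**Figure D3:**
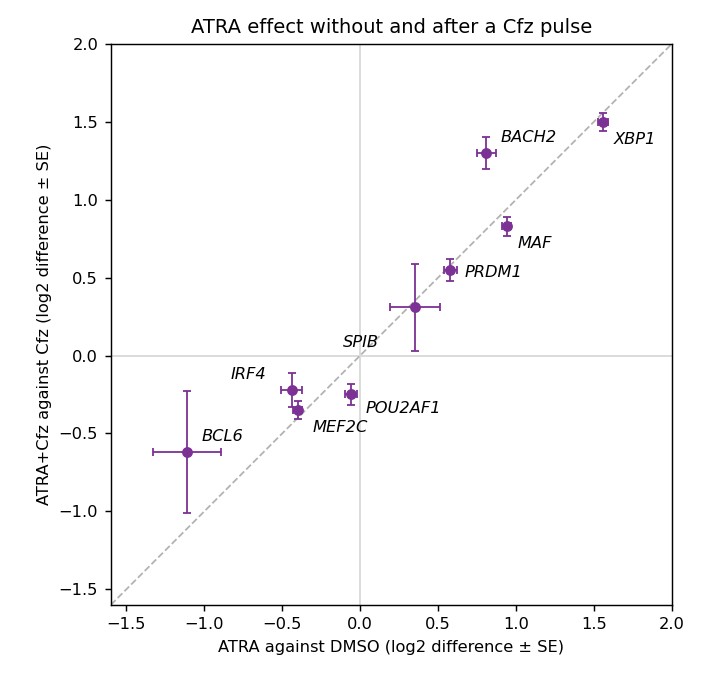
Log2 difference of each factor with ATRA against DMSO (horizontal) and with ATRA+Cfz against Cfz (vertical), with the SE of each from limma; no library enters both axes. The dashed line marks equal effects. XBP1, PRDM1, SPIB and MEF2C lie on it within their SE, and BACH2 (0.81 and 1.30) lies farthest above it among the abundant and moderate factors.

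Genes linked to the factors were taken from 6 lists, which share a few genes. XBP1 drives genes that bring proteins into the ER, fold them and remove those that misfold. Of 45 genes listed as XBP1 secretory genes, 22 rose with ATRA, 12 fell and 11 were not called. Their median log2 difference was 0.09 beside -0.03 over all genes. Whether XBP1 drives each of the 45 in these cells was not tested. Over all genes 21.3% were called higher and 27.4% lower, so the number that fell was near the background. Among those that rose were SRPRB, a subunit of the signal recognition particle receptor (0.82, from 132 ± 5.2 to 233 ± 6.6 FPM, SD, n = 3 each), EDEM3, an ER mannosidase of protein disposal (0.77), DNAJB9, an ER co-chaperone and classical target of XBP1 (0.66), and SEC61A1, the core of the translocation channel (0.36). BHLHA15, which encodes the secretory cell factor MIST1, rose from 5.46 ± 0.62 to 10.3 ± 1.5 FPM (0.85). Among those that fell were SEL1L, an adaptor of ER-associated degradation (-0.61), EDEM1 (-0.44), and HERPUD1, a stress-induced degradation factor (-0.21). The number lower was 7 when the first or second DMSO library or the second ATRA library was left out.

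With Cfz, 6 of the 45 were higher and 11 lower, where 7.94% and 17.0% of all genes were, with a median of -0.09 beside -0.08. HSPA5, the ER chaperone BiP, was higher with Cfz (0.38, limma adjusted p = 7.5e-03) and HERPUD1 too (0.41, limma adjusted p = 1.6e-03), whereas EDEM3 (-0.39) and SERP1 (-0.36) were lower. The number lower was 22 without the third DMSO library. After the Cfz pulse, ATRA went with 7 of the 45 higher and 11 lower (background 12.8% and 17.6%), or 13 and 19 without that library. ERN1, which encodes the IRE1 that splices XBP1, rose with ATRA from 208 ± 13 to 262 ± 4.6 FPM (0.33), and ATF6, the ER sensor that induces XBP1, was at -0.05 (limma adjusted p = 0.49), or -0.12 (limma adjusted p = 2.0e-03) without the third DMSO library.

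IRF4 and MYC sustain each other in myeloma cells, and IKZF1 and IKZF3, the targets of lenalidomide through CRBN, act above IRF4. Of 13 genes of this axis, 5 rose with ATRA, 4 fell and 4 were not called, with a median of 0.01 beside -0.03. The background was 21.3% higher and 27.4% lower, and the share of the axis that fell was near it. MYC rose from 339 ± 0.95 to 672 ± 4.0 FPM (0.99, SE 0.03, limma adjusted p = 5.8e-10) in the libraries in which IRF4 fell. IKZF1 (0.35), IKZF3 (0.32) and KLF2, a zinc finger factor (0.97), also rose. POU2F2, the octamer factor that works with the POU2AF1 product, fell from 14.8 ± 0.82 to 10.1 ± 0.49 FPM (-0.52), and POU2F1 by -0.36. With Cfz, 2 were higher and 4 lower (background 7.94% and 17.0%), or 4 and 2 with median-ratio scaling. IKZF1 was among the lower ones (-0.28).

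MAF is known to raise CCND2, ITGB7 and other genes in myelomas that overexpress it. While MAF rose with ATRA, 7 of 9 such genes fell, 1 rose and 1 was not called, where 27.4% of all genes fell and 21.3% rose. The median was -0.62 beside -0.03. The genes that fell included CCND2, a D-type cyclin (-0.59), DEPTOR, an mTOR inhibitor (-1.15, from 346 ± 35 to 155 ± 4.3 FPM), and the chemokine receptor CX3CR1, which went from 5.89 ± 1.2 to 0.587 ± 0.038 FPM (-2.54). ITGB7, an integrin subunit, was the one that rose (0.61, from 8314 ± 1300 to 12554.7 ± 96 FPM). After the Cfz pulse 7 of 9 were lower with ATRA and 0 higher, where 17.6% and 12.8% of all genes were, with a median of -0.83 beside 0.00. With Cfz alone 1 was higher (RND3, a small GTPase, 0.53) and 1 lower (AHNAK, a large scaffold protein, -0.67), beside 7.94% and 17.0% of all genes. None was higher without the second DMSO library (RND3 limma adjusted p = 0.075) or the third ATRA library (0.055), and 4 were lower without the third DMSO library.

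**Figure D4:**
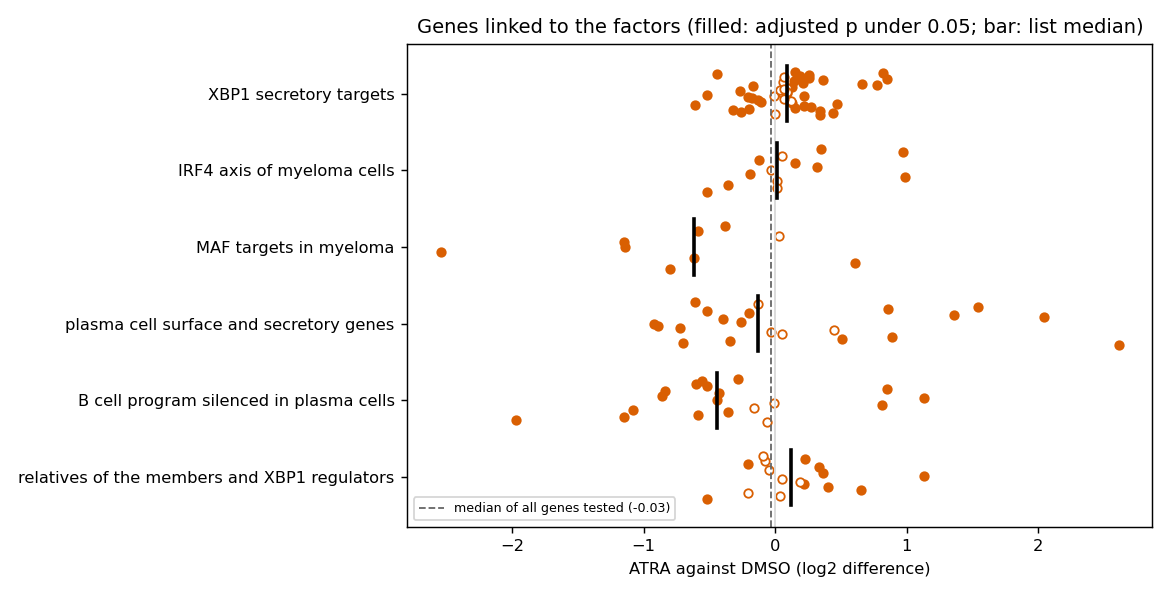
Log2 difference for ATRA against DMSO of each gene tested in 6 lists linked to the factors. Points are genes, filled where the limma adjusted p is under 0.05; bars mark each list's median and the dashed line the median of all genes tested (-0.03). The MAF targets (-0.62) and the B cell program (-0.44) have medians below it, and the XBP1 secretory genes (0.09) lie on both sides of 0.

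Surface and secretory genes of plasma cells changed in both directions. Of 24 listed, 21 were tested, and 7 rose with ATRA, 10 fell and 4 were not called (median -0.13 beside -0.03), where 21.3% of all genes rose and 27.4% fell. CD38, an ectoenzyme and antibody target, rose from 70.6 ± 7.8 to 431 ± 4.5 FPM (2.61), SDC1, the plasma cell marker CD138, rose by 1.54, and TNFRSF17, which encodes BCMA, by 0.86. JCHAIN, which joins polymeric antibodies, fell from 4665 ± 490 to 3890 ± 24 FPM (-0.26), and CAV1, the membrane protein caveolin, by -0.70. Of the surface genes, SLAMF7, 1 of the plasma cell markers, fell by -0.89 and GPRC5D by -0.92. With Cfz 1 was higher and 8 lower (background 7.94% and 17.0%), with 5 lower under median-ratio scaling and 15 without the third DMSO library. Both CD38 (-0.84) and CXCR4, a homing receptor (-0.97), were lower with Cfz.

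A B cell program listed as silenced in plasma cells was measured for 25 of its 35 genes, and 19 of them passed the filter. The list is not one of PRDM1 targets. With ATRA 13 of the 19 fell, 3 rose and 3 were not called, where 27.4% of all genes fell and 21.3% rose, with a median of -0.44 beside -0.03. CIITA, the activator of MHC class II and a direct target of BLIMP1, fell from 44.5 ± 3.4 to 29.4 ± 0.98 FPM (-0.59). ETS1, an ETS factor that opposes plasma cell formation, fell from 120 ± 3.2 to 53.9 ± 1.0 FPM (-1.15), and ID3, an inhibitor of E proteins, from 5.06 ± 0.39 to 0.921 ± 0.18 FPM (-1.97). The 3 that rose were GCSAM, a germinal centre signalling protein (0.85), IRF8 (1.13) and S1PR2 (0.81). With Cfz 0 were higher and 11 lower (background 7.94% and 17.0%), or 1 and 4 by DESeq2.

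Of 23 relatives of the members and regulators of XBP1, 16 were tested, and 7 rose with ATRA, 2 fell and 7 were not called (median 0.12 beside -0.03), where 21.3% of all genes rose and 27.4% fell. The number lower was 1 by DESeq2 and 4 without the third DMSO library. IRF8, the IRF4 relative of B cells and myeloid cells, rose from 7.50 ± 1.6 to 16.8 ± 0.44 FPM (1.13), while IRF4 fell. BACH1, the widely expressed relative of BACH2, rose with ATRA (0.23), was higher with Cfz (0.42) and was at 166 FPM with ATRA+Cfz, against 91.9 ± 1.7 FPM with DMSO (0.85). MEF2D rose (0.40) where MEF2C fell. With Cfz 4 of the 16 were higher and 2 lower (background 7.94% and 17.0%), the lower ones 0 to 1 in most alternatives and 4 without the third DMSO library.

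For each member the 3 genes with the most similar profile were found by the root mean square distance of log2 levels over the 8 libraries, each relative to its DMSO mean, among 10551 named genes that averaged 5 FPM or more. MYC was the nearest to MAF (distance 0.043), with log2 differences of 0.99 with ATRA and 0.75 with ATRA+Cfz. XBP1 was nearest to RNF187 (0.043), CD200R1 and OAS2, PRDM1 to ISCU (0.039), IRF4 to MALT1 (0.05) and MEF2C to PDE4DIP (0.022). BACH2 was nearest to SH3BGRL2 (0.082) and POU2AF1 to UBA1 (0.032). These distances are a description with no test. For BCL6, at few reads, the nearest, FCRLA, was 0.192 away.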

How the data were processed

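Per the submitters' processing notes, the tools were fastp (version 0.20.0), kallisto (version 0.46.2) and DESeq2 (version not stated). For that step, the build, annotation and strand setting were not given in the sources used here. The authors deposited FPM, a CPM unit in which each of the 32 lanes sums to 1000000. The table has 24402 lines for 24249 gene IDs, and 143 IDs on more than 1 line were used once. Symbols came from the table for 17006 IDs, and 7163 more were named from a gene name table. Whole reads were recovered for 100% of values within 0.01 read.

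The 4 lanes of a library were averaged, giving 8 libraries of 14136937 to 17155331 reads. Lanes differed little beyond sampling noise (chi-square per degree of freedom 1.21 to 1.26), and no member's lanes differed. In R 4.3.3, limma 3.58.1 with an intensity trend was fitted to log2(FPM + 0.5) over all libraries, with treatment as the only factor, for 15827 genes with a mean of the 4 group means of at least 0.5 FPM. The fit had 4 residual and 7.2 prior degrees of freedom, and adjusted p-values follow Benjamini-Hochberg. The code was tested on simulated data. Alternatives were edgeR 4.0.16 and DESeq2 1.42.0 on the recovered reads, median-ratio scaling, pseudocounts of 0.1 and 1 FPM, no filter, the replicate block, the DMSO and ATRA libraries only, and leaving out each DMSO or ATRA library.

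The members and gene lists were chosen with earlier results of these data known. Named from each list were preset anchor genes, up to 3 further called genes with the smallest p for ATRA and up to 2 for Cfz, at 2 FPM or more. S1PR2, SLAMF7 and GPRC5D are named besides these. Some genes of the lists are not reported here. Promoter sequences are from RefSeq (GRCh38.p14). They cover 9 of the 10 members (POU2AF1 had no entry). Members with more than 1 window (2 each for XBP1, PRDM1 and BCL6, and 7 for MEF2C) are described by the first listed only. In windows of 250 bases before and 50 after the start, 8 motifs were searched on both strands. Besides those named in the text, these were GGTTCA, ATGCAAAT, a pair of GAAA with 2 bases between, and GGAA followed by GAAA with 2 bases between. Gene positions and lengths are from GENCODE release 29.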

Additional observations from a re-analysis of the deposited data

Results flagged for a closer look

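For 3 named genes linked to the factors, the ATRA effect differed with the Cfz pulse by the limma interaction test, although the values after Cfz rest on 1 library each. Over the 45 XBP1 secretory genes, which include SEL1L, the median difference between the ATRA effects was -0.13, beside 0.01 over all genes. The direction of SEL1L is thus not that of its list. SEL1L, the adaptor of ER-associated degradation, changed by -0.61 with ATRA alone and by -0.15 after Cfz, a difference of 0.46 (SE 0.10, limma adjusted p = 0.043). CD38 rose by 2.61 alone and by 3.25 after Cfz, a difference of 0.64 (SE 0.13, limma adjusted p = 0.029), and its Cfz library was the lowest of the 8, at 39.0 FPM. MZB1, an ER co-chaperone of antibody assembly, rose by 0.51 alone and was at 0.16 (limma adjusted p = 0.059) after Cfz, a difference of -0.36 (SE 0.07, limma adjusted p = 0.024). When any ATRA library was left out, none of the 3 stayed called (limma adjusted p 0.095 to 0.13 for SEL1L, 0.074 to 0.095 for CD38 and 0.068 to 0.095 for MZB1). SEL1L was also not called without the first (0.068) or second (0.067) DMSO library, nor MZB1 without the second.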

How the results depend on the processing

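Of 659 values of the members under alternatives, 617 kept their side of the threshold, 31 were no longer called and 11 became called. Of values called in either fit, 0 changed direction. Values called in neither fit could change sign, as for PRDM1 with Cfz (0.02, but -0.03 without the third DMSO library). For ATRA against DMSO 125 of 126 kept their side of the threshold. Members called for Cfz against DMSO went from 3 to 0 with median-ratio scaling, 1 with edgeR and 0 with DESeq2. For ATRA+Cfz against ATRA they went from 2 to 1 with median-ratio scaling, edgeR and no filter, and ranged from 1 to 5 when a library was left out, with 5 without the third DMSO library. For the interaction that range was 0 to 3, with 3 without the same library. Over all genes, the interaction had 364 calls, 551 with median-ratio scaling and 2 to 1985 when a library was left out: 1985 without the third DMSO library, 240 without the first and 164 without the second, and 2, 8 and 35 without ATRA 1, 2 and 3. DESeq2 gave 2013 calls for Cfz against DMSO (3948 by limma), 3108 for ATRA+Cfz against Cfz (4818) and 2905 for ATRA+Cfz against ATRA (4884). ITGB7 with Cfz was at 0.01 and not called, but at -0.12 and called without the third DMSO library, in a range of -0.12 to 0.09 when a library was left out. Leaving out a DMSO library cannot change the estimate for ATRA+Cfz against ATRA or against Cfz. It changes only the error and the genes adjusted over. For IRF4 the difference between ATRA+Cfz and ATRA was 0.20 with and without the third DMSO library. The cause of the other shifts was not tested.

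The replicate numbers did not pair the libraries: same-numbered DMSO and ATRA libraries had correlations of their deviations of -0.006, -0.002 and 0.006, and no number stood out. With the replicate block 7 members and 7661 genes were called for ATRA against DMSO, against 7720 in the fit of the same 6 libraries without the block (7704 in the fit of all 8), and SERP1 was no longer called (adjusted p = 0.054). The Cfz and ATRA+Cfz libraries share no number, so no block could be fitted to their comparisons. Depth limits BCL6 and SPIB, at 4 to 36 reads per library.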
